A study of Homo sapiens with 4 samples.

Results

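The genes described here are 41 messages of the early secretory pathway: chaperones and folding enzymes of the endoplasmic reticulum (ER), sensors and targets of the unfolded protein response, and the machinery that targets, translocates, cleaves and glycosylates new secretory proteins. They were picked by gene symbol. Each of the 41 symbols matched 1 row of a table of 17064 rows, and 34 of them averaged 5 FPKM or more across the libraries, as did 7379 rows in all. FPKM is fragments divided by transcript length and by the library's mapped fragments, so it is a level per length and can be compared between genes. DNAJB9, DNAJC3, ERN1, SEL1L, SEC62, SEC63 and SSR1 stayed under that minimum and are described by their values but left out of the counts set beside other genes.

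The libraries came from KYSE-150, an established esophageal squamous cell carcinoma line that the labels call esophageal epithelial cells. Control cells had normal NSUN6 expression. The other cells carried a stable short hairpin RNA against NSUN6, an RNA methyltransferase that forms 5-methylcytosine. Both were treated with cycloheximide, which holds elongating ribosomes on their messages, and RNA pelleted through a sucrose cushion (polyribosome) was sequenced beside a part of the same lysate (input). Each kind of cell gave 1 input and 1 polyribosome library, 4 in all. The labels do not say whether the knockdown cells were a clone or a pool, nor how many hairpins were used, and they name no hairpin in the control cells. With 1 library per group no difference below has a replicate check, no p-value was computed, and differences are described by size.

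The identity of the second pair of libraries carries a doubt that touches every comparison below. The table closes with another header line, which calls these columns K30 with a hairpin against Mettl1 and swaps input and polyribosome relative to the first header. The first header fits the sample labels and was followed, the pair is called knockdown-labelled, and values with the fractions exchanged are given for each main result. NSUN6 was at 8.85 and 10.1 FPKM in control input and polyribosome RNA and at 3.83 and 0.38 FPKM in the knockdown-labelled pair. METTL1, which the closing header line names, was at 13.0 and 14.3 FPKM in the control pair. It was at 5.98 and 8.32 FPKM in the knockdown-labelled pair. The input differences were alike, -1.03 for NSUN6 and -1.01 for METTL1, so both targets named by the headers were lower. KRT5, the keratin of basal squamous cells, was at 906 and 1162 FPKM in the control pair and at 0.45 and 0.7 FPKM in the knockdown-labelled pair. KRT19, found in simple epithelium, was at 0.07 and 1.02 FPKM in the control pair and at 1488 and 1973 FPKM in the other. The pairs thus differed in markers of the labelled cell type, and 13 basal and squamous markers summed to 2047 and 2549 FPKM in control against 673 and 800 FPKM in knockdown-labelled RNA. The 14 simple and glandular markers in the table summed to 3204 and 4288 FPKM in control and 5435 and 6907 FPKM in knockdown-labelled RNA. These sums include KRT5 and KRT19. Of the 13, 12 and 12 reached 1 FPKM in control and 11 and 9 in the other pair. Of the 14 it was 5 and 6, and 6 and 6. KRT8 was at 1503 and 1941 FPKM in control and knockdown-labelled input, and KRT18 at 1616 and 1756 FPKM. EPCAM was at 66.4 and 186 FPKM in input and at 76.6 and 28.1 FPKM on polyribosomes. The 7 markers of professional secretory cells in the table, which carry a large ER, summed to at most 1.73 FPKM in any library and none reached 1 FPKM. The 16 markers of fibroblasts, endothelium and immune cells summed to 76.6 and 74.8 FPKM in control and 11.8 and 11.7 FPKM in knockdown-labelled RNA. These sums rest on few genes. Of the 16, 3 and 3 reached 1 FPKM in control and 3 and 2 in the other pair, and 1 passed the filter. The part these marker differences have in the results below was not tested, and in bulk RNA a smaller share of cells of a type and less RNA per cell cannot be told apart. Read depth is unknown.

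Secretory and membrane proteins enter the ER while they are being made. The signal recognition particle (SRP) binds the signal sequence on the ribosome, the Sec61 channel takes the chain into the lumen, signal peptidase removes the signal and oligosaccharyltransferase adds N-glycans, so these messages are translated on the same membrane whose machinery they encode or in the cytosol beside it. Lumenal chaperones such as HSPA5 (BiP) hold the chain until it folds, and failed proteins are sent back for degradation. When unfolded proteins accumulate, the sensors ERN1 (IRE1), ATF6 and EIF2AK3 (PERK) set off the unfolded protein response, in which ATF6 and spliced XBP1 raise transcription of chaperone genes through short promoter elements.

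Those elements could be read in the members' own promoters, and the sites are shown because they group the members by a feature that the expression values did not enter. RefSeq promoters of GRCh38.p14, from 250 bases before to 50 bases after the start, were found for 37 of the 41 members, all but PDIA3, SPCS1, RPN1 and STT3B. The ER stress response element was searched on both strands as CCAAT, then any 9 bases, then CCACG. It was present in 6 of the 37 (16.2%) and in 25 of 27305 genes in the table (0.0916%). The second form, ATTGG, any 1 base, CCACG, was in 3 members (8.11%) and in 0.0696% of genes. The unfolded protein response element TGACGTGG was in 4 members, HYOU1, SEC62, SSR3 and SSR4 (10.8%), against 0.927% of genes. Counted separately and whatever else the promoter held, CCAAT was in 30 of the 37 (81.1%) and CCACG in 27 (73.0%), against 39.7% and 42.1% of genes. In HYOU1 the TGACGTGG match overlaps the first of its 2 printed matches of the second form. Several promoters are listed for some genes, which raises their chance of a match. The members were picked partly as targets of the unfolded protein response, which acts through these elements. Their higher shares than over all genes are therefore no independent result. A match is a stretch of letters and was not measured as a bound site.

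The sites below are written 5′ to 3′ on the gene's strand with 12 bases on each side, and the capitals mark the match. A match on the opposite strand therefore starts with CGTGG. Members with the first form are HSPA5, HSP90B1, CALR, CANX, PDIA6 and XBP1, and those with the second are HERPUD1, HYOU1 and SDF2L1. SSR4 shows the unfolded protein response element, here as CCACGTCA on the opposite strand.
HSPA5, chr9:125241379-125241421, minus strand: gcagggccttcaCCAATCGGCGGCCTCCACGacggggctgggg
HSP90B1, chr12:103930204-103930246, plus strand: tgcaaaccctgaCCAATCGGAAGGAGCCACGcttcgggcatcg
HSP90B1, chr12:103930309-103930351, plus strand: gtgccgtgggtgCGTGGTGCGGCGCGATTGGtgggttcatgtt
CALR, chr19:12938372-12938414, plus strand: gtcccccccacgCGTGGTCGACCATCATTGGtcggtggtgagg
CANX, chr5:179698766-179698808, plus strand: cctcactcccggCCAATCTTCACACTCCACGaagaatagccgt
PDIA6, chr2:10812841-10812883, minus strand: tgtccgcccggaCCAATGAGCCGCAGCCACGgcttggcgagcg
XBP1, chr22:28800591-28800633, minus strand: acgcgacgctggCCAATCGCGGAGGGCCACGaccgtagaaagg
HERPUD1, chr16:56932013-56932047, plus strand: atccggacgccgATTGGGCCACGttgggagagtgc
HYOU1, chr11:119057368-119057402, minus strand: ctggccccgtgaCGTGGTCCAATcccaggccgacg
HYOU1, chr11:119057262-119057296, minus strand: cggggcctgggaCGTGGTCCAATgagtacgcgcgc
SDF2L1, chr22:21642102-21642136, plus strand: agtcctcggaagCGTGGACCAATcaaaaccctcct
SSR4, chrX:153794527-153794558, plus strand: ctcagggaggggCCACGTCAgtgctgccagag
The HSPA5 site ended 48 bases before the start, and the XBP1 site 34 bases before it. HSP90B1 held a match on each strand, ending 176 and 71 bases before its start. The 9 bases between CCAAT and CCACG differed between the 6 genes.

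The whole upstream window of HSPA5, at chr9:125241344-125241593 on the minus strand, shows where its site stands among other CCAAT stretches, which are in lower case here because no CCACG follows them at the fixed distance.
HSPA5 promoter: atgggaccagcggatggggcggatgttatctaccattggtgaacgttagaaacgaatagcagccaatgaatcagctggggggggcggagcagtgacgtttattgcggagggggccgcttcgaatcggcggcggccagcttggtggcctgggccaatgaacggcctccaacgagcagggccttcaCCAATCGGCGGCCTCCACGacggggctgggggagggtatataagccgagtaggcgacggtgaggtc

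In control cells the 41 messages ranged over a wide span, and the most abundant encoded subunits of the targeting and translocation complexes and the chaperone CALR. In control input SSR2, a subunit of the translocon-associated protein complex (TRAP), stood highest at 329 FPKM. SRP14, which binds the Alu domain of the SRP RNA, followed at 261 FPKM, SEC61G at 233 FPKM and the lectin chaperone CALR at 211 FPKM. The 3 lowest were ERN1 at 0.53 FPKM, SEL1L at 1.56 FPKM and DNAJC3 at 1.84 FPKM. The members' median was 35.6 FPKM in control input, 48.7 in control polyribosome, 52.8 in knockdown-labelled input and 25.4 in knockdown-labelled polyribosome RNA. Together they took 0.502%, 0.612%, 0.928% and 0.632% of all FPKM in those libraries, in the same order. None was at 0 in any library. PDIA3, XBP1, SRP9, SRP14, SRP72, SEC63, SSR1, SSR4 and SPCS2, 9 members in all, have pseudogenes named after them, so their values are uncertain where reads could be shared.

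**Figure D1:**
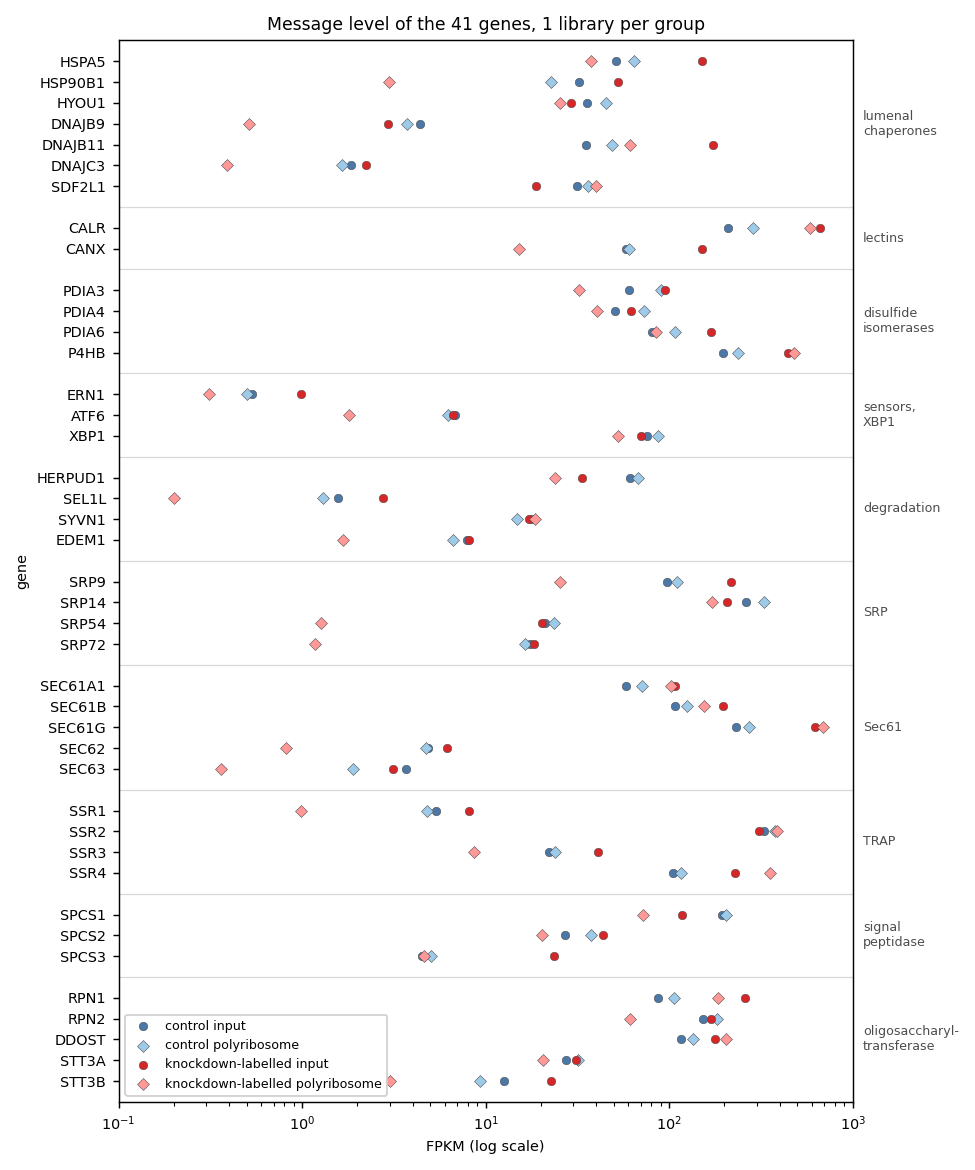
FPKM (x axis, log scale) of the 41 genes (y axis, grouped by role) in the 4 libraries, 1 point per library, circles for input and diamonds for polyribosome RNA. The knockdown-labelled polyribosome point lies far left of the other 3 for HSP90B1 (2.96 FPKM), SRP54 (1.26 FPKM) and SRP72 (1.17 FPKM), and both knockdown-labelled points lie right of both control points for CALR and SEC61G.

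The first comparison asked how these messages were spread between polyribosomes and input in control cells. Efficiency is log2(polyribosome FPKM + 1) minus log2(input FPKM + 1), so 0 means equal levels in both fractions. The disulfide isomerases and several chaperones stood a little higher on polyribosomes, and 28 of 41 members lay above 0. The median was 0.18 over the 41 members (0.21 over the 34 past the filter) and 0.03 over all 7379 genes. No member was 2-fold higher or lower, and over all genes the shares were 0% higher and 0.759% lower. PDIA3 (ERp57), which works with calnexin and calreticulin on glycoproteins, was at 60.8 FPKM in input and 90.1 FPKM on polyribosomes, an efficiency of 0.56, the highest of the 41. PDIA4 (ERp72) followed at 0.53, DNAJB11 (ERdj3) and SPCS2 of signal peptidase were at 0.46 and 0.45, and CALR was at 0.45. The 4 isomerases were all above 0, with P4HB lowest at 0.27. The lowest values belonged to SEC63, the J-domain partner of HSPA5 at the channel, at -0.70, and to HSP90B1 (GRP94), at -0.50. HSP90B1 was at 32.4 FPKM in input and 22.7 FPKM on polyribosomes, apart from HSPA5 at 51.1 and 64.2 FPKM. STT3B, the catalytic subunit that can glycosylate after translation, was at -0.39, while STT3A, which acts at the translocon, was at 0.21. The ER-associated degradation genes were mostly below 0, with SYVN1 (HRD1), the ubiquitin ligase, at -0.24 and EDEM1, a mannosidase-like lectin, at -0.23, and of the 4 HERPUD1 alone lay above 0, at 0.15. In the authors' deposited table, where 5 was added to both FPKM before the ratio, PDIA3 was at 1.45 and HSP90B1 at 0.74.

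Across the 41 members control efficiency went with transcript length and GC content, at a Spearman's rho of -0.47 with length and 0.42 with GC content, while over 7157 genes the values were -0.19 and 0.02. These are descriptions over genes that share their libraries. After a trend on GC content and length was removed, the median was 0.15 over the 41 members, 0.20 over the 34 past the filter and 0.03 over all genes.

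In input RNA, which reflects message abundance, 11 members were at least 2-fold higher in knockdown-labelled than in control cells and none was 2-fold lower. All 11 passed the filter, SPCS3 only through its knockdown-labelled input, the value that makes it higher. With SPCS3 they were 32.4% of 34, while the shares over all genes were 13.2% higher and 14.4% lower. The median difference of log2(FPKM + 1), knockdown-labelled minus control, was 0.53 over the 41, 0.65 over the 34 and 0.01 over all genes. The 11 were HSPA5, DNAJB11, CALR, CANX, PDIA6, P4HB, SRP9, SEC61G, SSR4, SPCS3 and RPN1, and they came from 8 of the 10 roles. None was a stress sensor or a degradation gene.

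Among the lumenal chaperones, input HSPA5 was at 51.1 FPKM in control cells and 151 FPKM in knockdown-labelled cells, which differ by 1.54. DNAJB11, a co-chaperone that hands substrates to HSPA5, was at 35.1 and 172 FPKM, and its difference of 2.26 was the largest of the 41. SDF2L1, which forms a complex with DNAJB11, was at 31.5 and 18.7 FPKM (-0.72). These partners thus differed in opposite directions in this order of the fractions. With the fractions exchanged both were above 0, DNAJB11 at 0.79 and SDF2L1 at 0.33. HYOU1, a nucleotide exchange factor for HSPA5, was at 35.6 and 29.2 FPKM (-0.28), and HSP90B1 at 32.4 and 52.8 FPKM (0.69). Both lectins were higher, CALR at 211 and 666 FPKM (1.66) and its membrane-bound relative CANX at 58.3 and 152 FPKM (1.36). P4HB, the classical disulfide isomerase, was at 196 and 444 FPKM (1.18), and PDIA6 at 80.6 and 169 FPKM (1.06). PDIA3 and PDIA4 were also above 0, at 0.64 and 0.29.

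The sensors and XBP1 differed little in input. ATF6, cleaved on stress to a transcription factor, was at 6.81 and 6.65 FPKM (-0.03). XBP1 was at 76.1 and 70.6 FPKM (-0.11), with 1 row for the gene, so its spliced and unspliced forms were not told apart. ERN1, the nuclease that splices it, was at 0.53 and 0.99 FPKM, both under 1. HERPUD1, a stress-induced scaffold of the degradation complex, was at 61.2 and 33.5 FPKM (-0.85), the lowest difference of the 41. Its partners SYVN1 and EDEM1 were at -0.03 and 0.04. SEL1L, the adaptor of SYVN1, was at 1.56 and 2.76 FPKM (0.55).

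In the translocation and modification machinery the subunits of most complexes differed from each other. Of SRP, SRP9 was at 97.2 and 217 FPKM (1.15), while its dimer partner SRP14 was at 261 and 208 FPKM (-0.33) and the signal-binding SRP54 at 21.0 and 20.2 FPKM (-0.05). Of the channel, SEC61G was at 233 and 628 FPKM (1.43), SEC61A1 at 58.2 and 108 FPKM (0.88) and SEC61B at 107 and 196 FPKM (0.86), so its 3 subunits were all higher. Of TRAP, SSR4 was at 105 and 228 FPKM (1.12) and SSR2 at 329 and 310 FPKM (-0.09). Of signal peptidase, SPCS3 was at 4.5 and 23.6 FPKM (2.16) and SPCS1 at 195 and 117 FPKM (-0.73), and SPCS3 passed the filter only through its knockdown-labelled input. All 5 oligosaccharyltransferase subunits lay above 0, from RPN2 at 0.15 to RPN1 at 1.57, the latter at 86.5 and 258 FPKM.

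**Figure D2:**
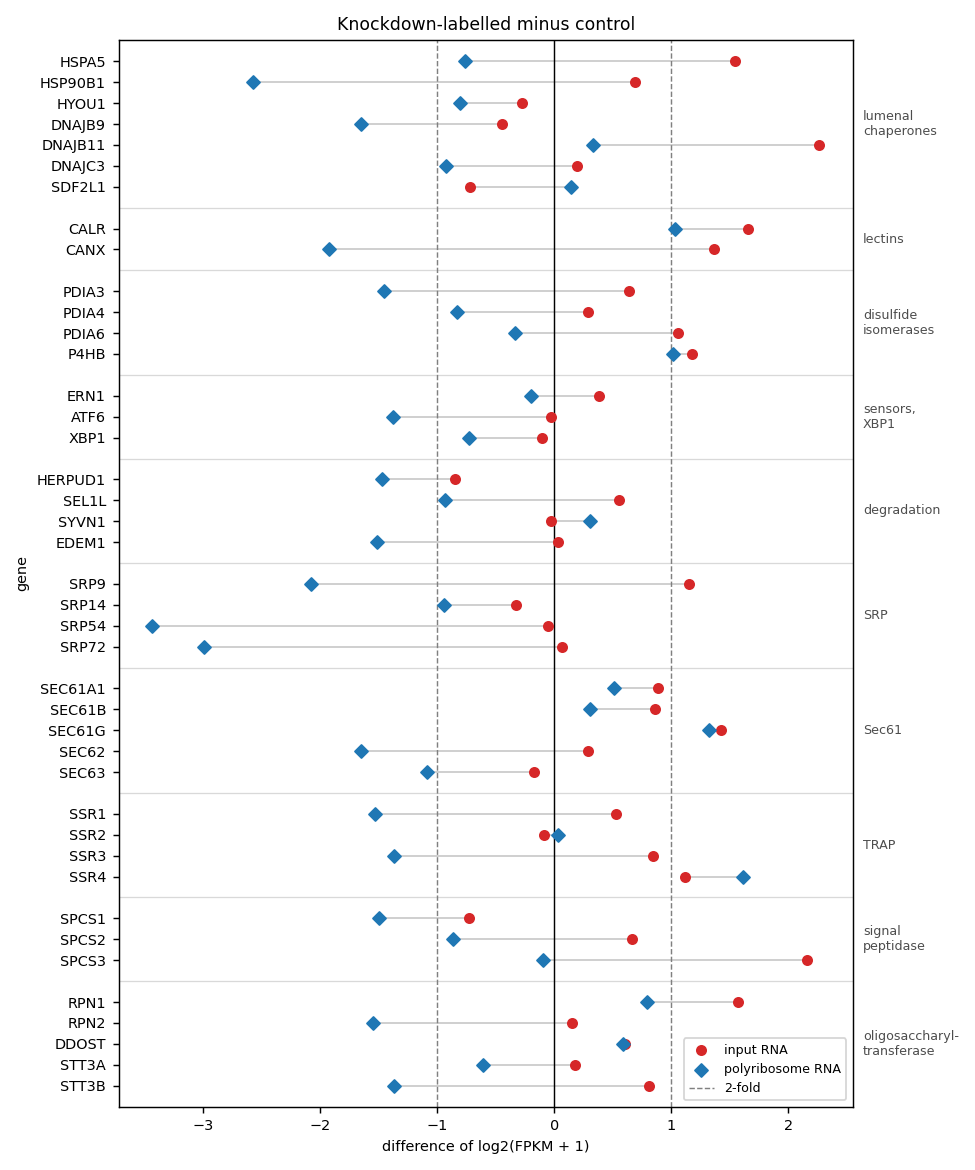
Difference of log2(FPKM + 1), knockdown-labelled minus control, for each of the 41 genes in input and in polyribosome RNA, as red circles and blue diamonds joined by a line. Dashed lines mark 2-fold. In input none of the 41 lies at or below -1, and in polyribosome RNA 17 do.

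Grouped by the promoter matches above, the 6 members with the first form had a median input difference of 1.21, from -0.11 for XBP1 to 1.66 for CALR, and 4 of the 6 were at least 2-fold higher. The 3 with the second form had a median of -0.72, from -0.85 for HERPUD1 to -0.28 for HYOU1. The 28 with neither had a median of 0.34 and 6 at least 2-fold higher. With the fractions exchanged the 3 medians were -0.48, -0.47 and -0.51, so the order of the groups depended on which library is the input. This grouping was not tested.

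On polyribosomes 17 of 41 members were at least 2-fold lower in knockdown-labelled cells and 4 at least 2-fold higher. Of the 11 higher in input, CANX and SRP9 were among the 17, and CALR, P4HB, SEC61G and SSR4 were the 4. Of the 34 past the filter 13 (38.2%) were lower and 4 (11.8%) higher, beside 32.9% lower and 16.7% higher over all genes, so the lower share was near that of all genes. ATF6 and EDEM1, counted as lower, passed the filter only through the control pair, where they are high. The members' median was -0.87 (-0.78 over the 34) and that of all genes -0.28. SRP54, the SRP subunit that binds signal sequences, was at 23.5 FPKM on control and 1.26 FPKM on knockdown-labelled polyribosomes, which is 5.36% of control (-3.44). SRP72, the scaffold of the SRP protein core, was at 16.3 and 1.17 FPKM (-3.00), and SRP9 at 110 and 25.4 FPKM (-2.08). HSP90B1 was at 22.7 and 2.96 FPKM, 13.1% of control (-2.58). These 3 SRP subunits and HSP90B1 had the lowest polyribosome differences of the 41. SRP14 was at 329 and 171 FPKM (-0.94). CANX was at 60.8 and 15.3 FPKM (-1.92), whereas CALR was at 287 and 587 FPKM (1.03). The lectin pair that was higher together in input thus differed in direction here. With the fractions exchanged CANX and CALR were at 1.31 and 1.21 on polyribosomes and at -1.86 and 1.48 in input. The other members at least 2-fold higher were SSR4, at 116 and 356 FPKM (1.61), SEC61G, at 273 and 686 FPKM (1.33), and P4HB, at 237 and 478 FPKM (1.01). HERPUD1 (-1.48) and SPCS1 (-1.50) were 2-fold lower on polyribosomes and also below 0 in input.

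The other chaperones and isomerases lay between these ends on polyribosomes. HSPA5 was at 64.2 FPKM on control and 37.4 FPKM on knockdown-labelled polyribosomes (-0.76), DNAJB11 at 48.7 and 61.5 FPKM (0.33), and HYOU1 at 45.2 and 25.4 FPKM (-0.81). SDF2L1, lower in input, was at 36.0 and 39.8 FPKM here (0.14). PDIA3 was at 90.1 and 32.2 FPKM (-1.46), PDIA4 at 73.4 and 40.7 FPKM (-0.84) and PDIA6 at 108 and 85.1 FPKM (-0.34). XBP1 was at 87.3 and 52.4 FPKM (-0.73), and ATF6 at 6.24 and 1.79 FPKM (-1.38).

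Of the membrane machinery, RPN2 was at 181 and 61.1 FPKM on polyribosomes (-1.55) and RPN1 at 107 and 185 FPKM (0.79), although both are non-catalytic subunits of oligosaccharyltransferase. DDOST, a further such subunit, was at 135 and 203 FPKM (0.59). STT3B was at 9.37 and 3.01 FPKM (-1.37), and STT3A at 31.9 and 20.6 FPKM (-0.61). SSR3 of TRAP was at 24 and 8.68 FPKM (-1.37), and SSR2 at 379 and 387 FPKM (0.03). EDEM1 was at 6.62 and 1.66 FPKM (-1.52), while SYVN1, at 14.9 and 18.7 FPKM (0.31), was the highest of the 4 degradation genes.

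The 7 members under the filter were each lowest in knockdown-labelled polyribosome RNA, where none reached 1 FPKM. SEC62 was at 4.86 FPKM in control input, 4.72 in control polyribosome, 6.17 in knockdown-labelled input and 0.82 in knockdown-labelled polyribosome RNA. In the same order SSR1 was at 5.36, 4.77, 8.16 and 0.99 FPKM, and SEC63 at 3.68, 1.89, 3.14 and 0.36 FPKM. The HSPA5 co-chaperones DNAJB9 (ERdj4) and DNAJC3 (p58IPK) were at 4.36, 3.74, 2.92 and 0.51 FPKM and at 1.84, 1.64, 2.24 and 0.39 FPKM. SEL1L was at 1.56, 1.3, 2.76 and 0.2 FPKM, and ERN1 at 0.53, 0.5, 0.99 and 0.31 FPKM. Except for ERN1 these transcripts hold at most 40.6% GC, and their lengths run from 2715 bases for DNAJB9 to 9669 bases for SSR1. At such levels the added constant of 1 FPKM shrinks the differences.

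Some members differed between the pairs whichever library is the input. Both knockdown-labelled libraries lay above both control libraries for 9 members: DNAJB11, CALR, P4HB, SEC61A1, SEC61B, SEC61G, SSR4, RPN1 and DDOST. Both lay below for 7: HYOU1, DNAJB9, XBP1, HERPUD1, SRP14, SRP54 and SPCS1, of which DNAJB9 did not pass the filter. Of the 34 past the filter this was 26.5% above and 17.6% below, beside 26.1% above and 31.3% below over all genes, so the share above was that of genes in general. The smallest difference between a knockdown-labelled and a control library was 1.20 for SEC61G, 1.03 for CALR, 0.97 for SSR4 and 0.91 for P4HB. For HERPUD1 it was -0.85, for SPCS1 -0.73 and for SRP54 -0.05. This comparison was added after the values had been seen.

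In knockdown-labelled cells efficiency differed widely from member to member. SDF2L1 alone was at least 2-fold higher on polyribosomes than in input, at 18.7 FPKM in input and 39.8 FPKM on polyribosomes (1.05), beside 8.62% of all genes. At least 2-fold lower were 21 members, 15 of the 34 past the filter (44.1%), beside 28.8% of all genes. Of these 15, ATF6 and EDEM1 passed the filter only through the control pair and SPCS3 only through the knockdown-labelled pair. The median was -1.07 over the 41, -0.64 over the 34 and -0.02 over all genes. HSP90B1, at 52.8 FPKM in input and 2.96 FPKM on polyribosomes, had the lowest value, -3.76. SRP54 and CANX were both at -3.23, SRP72 at -3.16, SRP9 at -3.05 and STT3B at -2.56. In the authors' deposited table, with its added constant of 5, the ratio was 0.138 for HSP90B1, 0.129 for CANX and 1.89 for SDF2L1.

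**Figure D3:**
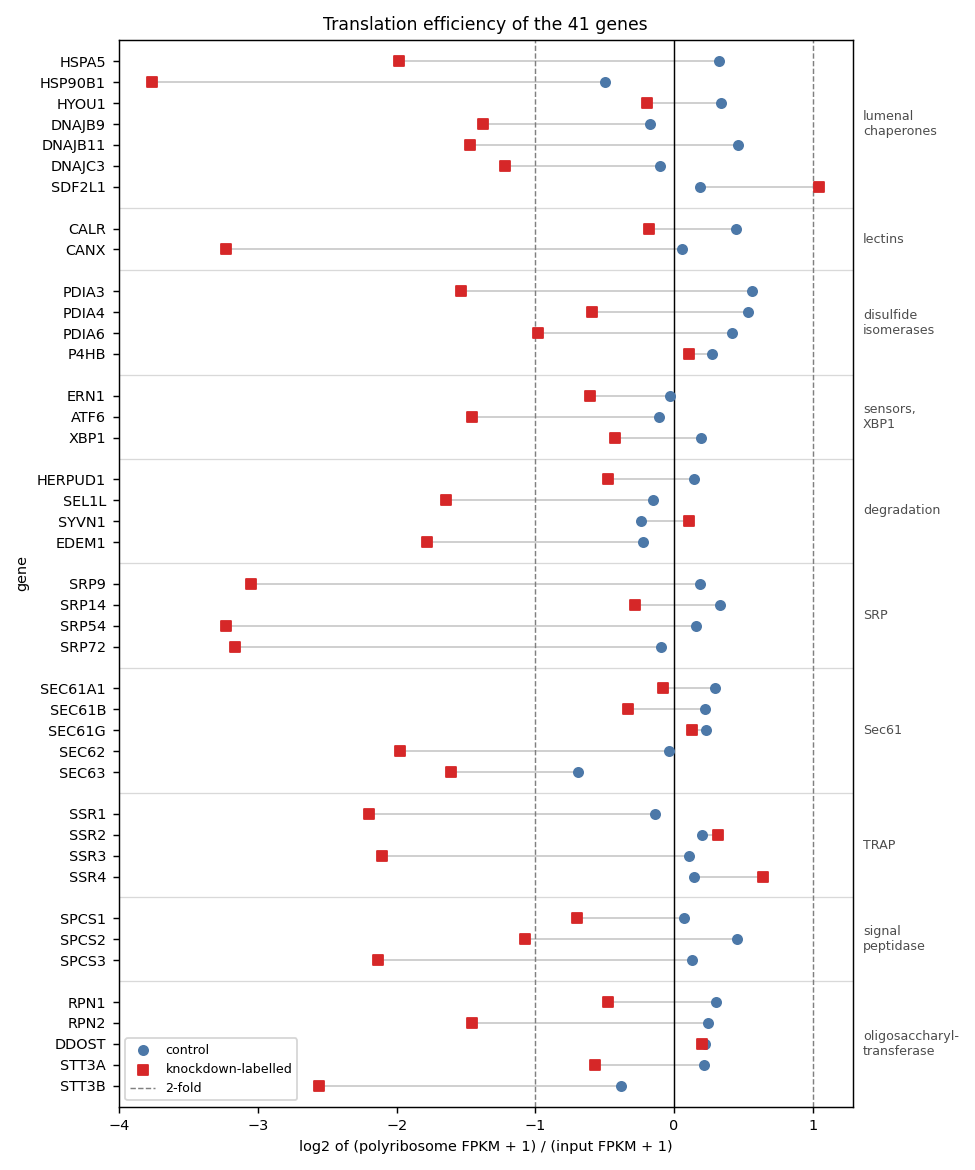
Log2 efficiency (polyribosome over input, FPKM + 1) of each of the 41 genes in control and in knockdown-labelled cells, 1 value per gene and pair. The control values lie between -0.70 and 0.56, and the knockdown-labelled values between -3.76 and 1.05.

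Set against control, the efficiency difference was at or below -1 for 22 members and at or above 1 for none. Of the 34 past the filter 17 (50%) were lower, beside 30.1% lower and 12% higher over all genes. These 17 include ATF6, EDEM1 and SPCS3, each past the filter through 1 pair only. The median was -1.12 over the 41, -0.95 over the 34 and -0.12 over all genes, and 37 of the 41 lay below 0. By role the SRP subunits had the lowest median, -3.15 over 4 genes, with SRP54 at -3.39, SRP9 at -3.23, SRP72 at -3.07 and SRP14 apart from them at -0.61. Of the chaperones HSP90B1 was at -3.27, HSPA5 at -2.31 and DNAJB11 at -1.94, and SDF2L1 was the highest of the 41 at 0.86 (-0.84 with GC content and length removed). The lectins were unequal, CANX at -3.29 and CALR at -0.63, as were the catalytic subunits STT3B at -2.18 and STT3A at -0.78. Within TRAP, SSR3 was at -2.21 and SSR1 at -2.06, and SSR2 and SSR4 at 0.12 and 0.50. With GC content and length removed SSR3 and SSR1 were at -0.64 and -0.68, and SSR2 and SSR4 at -0.15 and -0.71. The 3 Sec61 subunits were under 2-fold, SEC61B at -0.55, SEC61A1 at -0.37 and SEC61G at -0.10. SEC62 and SEC63, channel partners that also serve chains entering after synthesis, were at -1.94 and -0.91, and neither passed the filter. With GC content and length removed this order turned. SEC61B, SEC61A1 and SEC61G were then at -0.86, -0.54 and -0.14, and SEC62 and SEC63 at 0.083 and 0.72. Of the degradation genes SYVN1 was at 0.34 and its adaptor SEL1L, which did not pass the filter, at -1.49. With GC content and length removed both changed sign, SYVN1 to -0.37 and SEL1L to 0.11.

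These differences followed the base composition of the transcripts. Spearman's rho of GC content with knockdown-labelled efficiency was 0.78 over the 41 members and 0.83 over 7157 genes, and with the efficiency difference 0.73 and 0.79. With the polyribosome difference it was 0.66 and 0.62, and with the input difference -0.01 and -0.10. Points share their libraries, so these are descriptions. The members' median GC content was 45.3%, below the 52.3% of all genes. In the 13 members lowest in GC content (35.7% to 41.3%) all 13 were at least 2-fold lower on knockdown-labelled polyribosomes than in input, with a median of -1.98. In the 15 in the middle 7 were, with a median of -0.98, and in the 13 highest (50.7% to 65.5%) 1 was, RPN2, with a median of -0.08. The share among all genes of like GC content was not computed, so these counts cannot be read as a trait of the members. Of the 13 lowest, SEC62, SEL1L, SEC63, DNAJC3, DNAJB9 and SSR1 did not pass the filter and were under 1 FPKM on knockdown-labelled polyribosomes. Some unlike pairs also differed in GC content, CANX with 41.6% and CALR with 53.9%, SSR3 with 40.0% and SSR4 with 62.9%. Another pair did so little: RPN1 with 50.7% and RPN2 with 51.4% had knockdown-labelled efficiencies of -0.48 and -1.46. SRP14 (43.5%) and STT3A (43.8%) were higher than members of like GC content, HSP90B1 (42.4%) and STT3B (41.5%) among them.

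**Figure D4:**
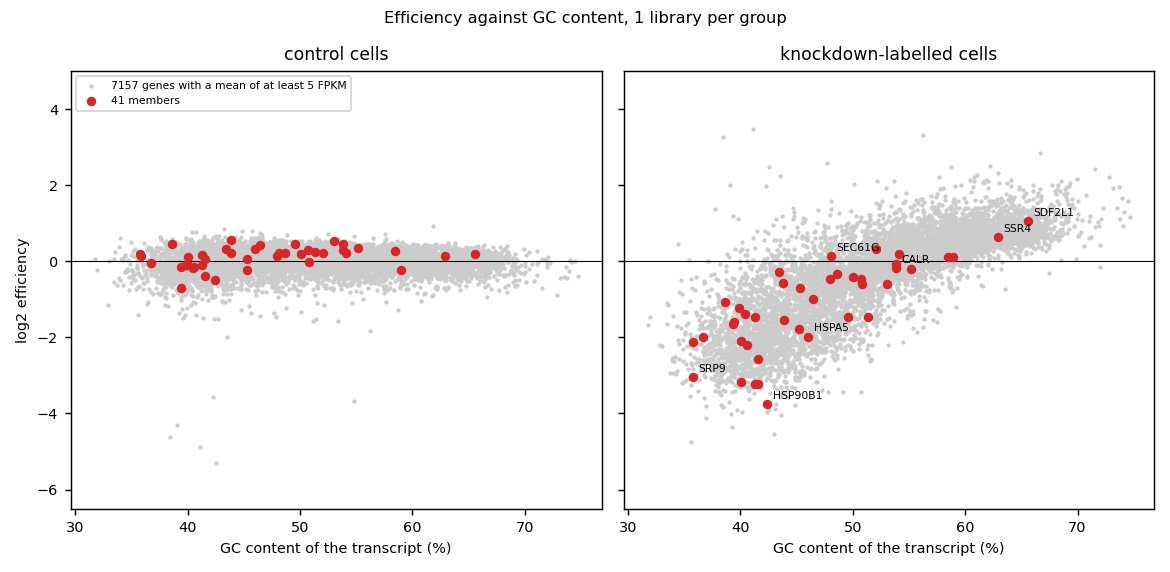
Log2 efficiency against GC content of the transcript (%) in control and in knockdown-labelled cells, red points for the 41 members and grey points for the 7157 genes past the filter with a GC value. In control cells most points lie near 0 at any GC content, and in knockdown-labelled cells members and other genes alike lie lower at low GC content and higher at high GC content.

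With a trend on GC content and length removed over all genes, the members' median efficiency difference was -0.64 and that of all genes -0.41. In that setting 10 of the 34 past the filter (29.4%) were at least 2-fold lower and none higher, beside 17.8% and 5.21% of genes. The 7 under the filter added none. The 10 were SRP54 (-2.06), HSP90B1 (-2.05), CANX (-1.93), DNAJB11 (-1.66), RPN2 (-1.63), HSPA5 (-1.54), SRP72 (-1.49), SRP9 (-1.27), PDIA4 (-1.21) and PDIA3 (-1.05). SPCS2, SEC62, SEL1L, DNAJB9 and DNAJC3 went from at least 2-fold lower to above 0, and in all 12 members changed sign. The input difference moved little, with a median of 0.47 and 10 members at least 2-fold higher. All 10 passed the filter (29.4% of the 34, beside 12.6% of genes), SPCS3 only through its knockdown-labelled input. The polyribosome median was -0.10, above the -0.38 of all genes.

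With the knockdown-labelled fractions exchanged, as the second line of names has them, many of these directions turned: 21 of the 41 changed sign in input, 21 on polyribosomes and 33 in efficiency difference. In input 5 of the 34 past the filter (14.7%) were then at least 2-fold higher, beside 15.9% of all genes, and 12 (35.3%) lower, beside 31.8%. Both shares were near those of all genes, and the median over the 41 was -0.53. On polyribosomes 9 (26.5%) were higher, beside 12.7% of all genes, and none lower, beside 14%, with a median of 0.39. The efficiency difference was at least 2-fold higher for 13 (38.2%), beside 27.8% of all genes, and lower for SDF2L1 alone, beside 6.29%, with a median of 0.63. SPCS3, counted here as higher on polyribosomes and in efficiency difference, passed the filter only through the knockdown-labelled pair. ATF6 and EDEM1, counted as lower in input and higher in efficiency difference, passed it only through the control pair. CALR, P4HB, SEC61G, SSR4 and RPN1 were the 5 members at least 2-fold higher in input under either order. Which order is right cannot be told from these files.

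Other genes of the same pathways, from lists drawn up by function, were spread in both directions. Of 177 listed, the table held 176, and 147 of these passed the filter. In input 26 (17.7%) were at least 2-fold higher and 16 (10.9%) lower, beside 13.2% and 14.4% of all genes. On polyribosomes 18 (12.2%) were higher and 40 (27.2%) lower, beside 16.7% and 32.9%. In efficiency difference 12 (8.16%) were higher and 46 (31.3%) lower, beside 12% and 30.1%, so the lower share was near that of genes in general. With the fractions exchanged 42 (28.6%) were higher and 5 (3.40%) lower in efficiency difference, beside 27.8% and 6.29%. Some listed genes passed the filter only through the pair in which they are high: 8 of the 26 higher in input, AGR2 and TUSC3 among them, and 3 of the 16 lower, FKBP11 among them. On polyribosomes these were 3 of the 18 higher and 6 of the 40 lower. In efficiency difference 3 of the 46 lower passed only through the control pair. With the fractions exchanged 6 of the 42 higher passed only through the knockdown-labelled pair. In the list for the unfolded protein response 4 of 20 were at least 2-fold higher and 6 lower in input, with a median of 0.27. The genes named from it, and from the lists below, are the ends of each list and do not stand for it. ATF4, the transcription factor that PERK signalling induces, had 432 FPKM in control cells against 180 FPKM in knockdown-labelled input, and 294 and 380 FPKM on polyribosomes. Its efficiency difference was 1.63. At the low end in input, DDIT3 (CHOP), a target of ATF4, was at 48.3 and 7.31 FPKM in input (-2.57), and PPP1R15A (GADD34), which reverses the translational block, at 210 and 54.8 FPKM (-1.92). PPP1R15B, its constitutive counterpart, was at 6.3 and 24.4 FPKM (1.80). ATF6B, the relative of ATF6, was at 18.3 and 91.5 FPKM in input (2.26) and at 19.02 and 116 FPKM on polyribosomes (2.55).

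For these smaller lists the shares of all genes given above apply. Among the oxidoreductases and prolyl isomerases, 3 of 19 past the filter were at least 2-fold higher and 2 lower in input. Of these, 2 of the 3, AGR2 among them, and FKBP11 of the 2 passed the filter only through the pair in which they are high. AGR2, a disulfide isomerase of mucus-secreting epithelium, was at 0.25 and 0.15 FPKM in control and at 1093 FPKM in the input and 316 FPKM in the polyribosome RNA of knockdown-labelled cells. FKBP11 was at 12.4 and 12.6 FPKM in control and at 0.58 and 0.6 FPKM in the other pair. Of 7 further oligosaccharyltransferase subunits 3 were higher and none lower in input. TUSC3, 1 of the 3, passed the filter only through the knockdown-labelled pair. TUSC3, an oxidoreductase subunit of the STT3B complex, was at 0.73 and 0.45 FPKM in control and 37.1 and 20.8 FPKM in knockdown-labelled RNA. OST4, a very short subunit, had the highest efficiency difference of that list, 2.05, and OSTC, which joins the STT3A complex, the lowest, -2.13. Of 22 targeting and translocation genes 5 (22.7%) were higher and none lower in input, and 7 (31.8%, near the 30.1% of all genes) were lower and none higher in efficiency difference. SRP19, which helps assemble SRP, was among the 2 lowest of those at -2.58, beside the values of SRP54, SRP9 and SRP72 above. The list also holds HSPA4, a cytosolic chaperone, at -3.69. Of 29 degradation genes 10 (34.5%) were lower and 2 higher in efficiency difference, with RNF103 at -2.61 and TMUB1 at 2.34. In the ER membrane protein complex, which inserts membrane proteins, 3 of 10 (30%) were lower and 2 higher, from MMGT1 at -2.57 to EMC6 at 1.70. Of 19 N-glycan genes 6 (31.6%) were lower and 2 higher, and the subunits of 1 enzyme, dolichol-phosphate mannose synthase, stood at both ends, DPM1 at -2.60 and DPM2 at 1.52. Of 21 genes of COPII export 8 (38.1%) were lower and 1 higher, PREB at 1.27. Of these 8, 2 passed the filter only through the control pair, as did 1 of the 7 lower targeting and translocation genes.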

How the data were processed

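Values came from 1 deposited table that lists FPKM by gene symbol for each library, with the ratio of polyribosome to input. The authors made the FPKM with TopHat (no version given) on hg19 or GRCh37, per the submitters' processing notes. Counting tool, strand setting and annotation: not given in the sources used here. The libraries were stranded and from poly(A) RNA, per the labels' protocols. The authors' deposited efficiency ratio is (polyribosome FPKM + 5) over (input FPKM + 5), as the values show (largest gap 5e-10). Sample titles gave the groups, and the first header's column names were matched to the sample descriptions. In 28 rows no gene name stands. They take at most 0.0715% of a library's FPKM, entered the counts over all genes and named no gene.

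FPKM are not counts, so no count test was used. Differences are of log2(FPKM + 1), which understates low genes. Genes had to average 5 FPKM or more over the 4 libraries, and a difference of at least 2-fold (1 on the log2 scale) was counted. With 1 library per group no test was run in any of the 5 comparisons. No depth could be read from the values, which are rounded to 0.01 FPKM, so no interval was computed. FPKM summed to 579251, 564769, 538002 and 627887 in control input, control polyribosome, knockdown-labelled input and knockdown-labelled polyribosome RNA.

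GC content and length came from 1 transcript per gene in GENCODE 29, found for 7157 of 7379 genes (97.0%). A second-order fit on GC content and log2 length over those genes was subtracted, with the mean kept. Promoters are RefSeq, GRCh38.p14, a build other than the authors', and carry no expression coordinates. Protein sequences were not used here. All 41 members may be named, and of each other list the 2 highest and 2 lowest genes past the filter in each comparison, with NSUN6, KRT5 and KRT19 as checks. METTL1, KRT8, KRT18 and EPCAM were named as further checks. The members and lists were chosen with earlier results of these data known. The alternatives were a pseudocount of 0.1 or 5 FPKM, a minimum mean of 1 FPKM or no minimum, centring on the median of all genes, the knockdown-labelled fractions exchanged, and GC content and length removed. Scripts were tested on simulated data. Python 3.11.15, pandas 2.3.3, NumPy 2.4.6, SciPy 1.17.1 and matplotlib 3.10.9 were used.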

Additional observations from a re-analysis of the deposited data

Results flagged for a closer look

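The efficiency of the 41 messages differed between the pairs of libraries. Control cells had a median of 0.18 and knockdown-labelled cells one of -1.07, and the median of the differences per gene was -1.12. It was flagged because 22 members lay above 0 in control and below 0 in knockdown-labelled cells, while 1 lay the other way. All of these passed the filter, SPCS3 only through its knockdown-labelled input. Of the 34 members past the filter the shares were 64.7% and 2.94%, beside 29.3% and 24.1% of all genes. The median difference was -0.95 over the 34 and -0.12 over all genes. With GC content and length removed it was -0.64 over the 41, -0.73 over the 34 and -0.41 over all genes. The difference was not tested, since each pair holds 1 library per fraction. With the fractions exchanged the median difference was 0.63.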

How the results depend on the processing

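The median efficiency and counts in control cells kept their direction and stayed within 1.5 times under every alternative run. With GC content and length removed, 8 of the 41 members changed sign in control efficiency, all under 2-fold. They were SRP72, SSR1, SEC62, SPCS1, ATF6, SEL1L, DNAJC3 and ERN1. A pseudocount of 0.1 FPKM and centring on the median of all genes changed no median or count over the 41 members by over 1.5 times. The minimum mean sets only the genes they are compared with and cannot move values over the 41. Over the 34 past the filter the median knockdown-labelled efficiency was -0.64, against -1.07 over the 41. With 5 FPKM added, as the authors did, the members' median was -0.58 for knockdown-labelled efficiency, 0.27 for input and -0.71 for the efficiency difference, and 0 members were 2-fold higher and 13 lower in knockdown-labelled efficiency and 10 lower on polyribosomes. Shares over all genes were not computed with this constant, so these counts have no background beside them. With GC content and length removed, knockdown-labelled efficiency had a median of -0.45 with 0 higher and 8 lower, polyribosome RNA a median of -0.10 with 2 higher and 8 lower, and the efficiency difference a median of -0.64 with 10 lower. These medians are over the 41. Over the 34 past the filter they were -0.53, -0.15 and -0.73, and over all genes -0.37, -0.38 and -0.41. Of the 34 past the filter 23.5%, 23.5% and 29.4% were lower, beside 14.3%, 26.2% and 17.8% of genes. On polyribosomes 5.88% of the 34 were higher, beside 10.3% of genes, and the lower share was near that of genes. The polyribosome median over the 41 minus that of all genes was then 0.28. In this setting, among members at least 2-fold different, knockdown-labelled efficiency reversed for SPCS3 0.27, SPCS2 0.75, SEC62 0.30, ATF6 0.052, SEL1L 0.17, DNAJB9 0.15, DNAJC3 0.52, SEC63 0.21 and SDF2L1 -0.60, polyribosome RNA for SSR3 0.038, SEC62 0.28 and SEC63 0.46, and the efficiency difference for SPCS2 0.20, SEC62 0.083, SEL1L 0.11, DNAJB9 0.27 and DNAJC3 0.47. Under 2-fold, a further 8, 9 and 7 members changed sign in these comparisons, and SDF2L1 went to -0.84 in efficiency difference. The trend was fitted over all genes, and GC content and length cannot be told apart from other features that go with them.

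With the knockdown-labelled fractions exchanged, knockdown-labelled efficiency is by construction the negative of its value, with a median of 1.07, 21 members higher and 1 lower. Input had a median of -0.53, 5 higher and 18 lower, polyribosome RNA 0.39, 9 and 0, and the efficiency difference 0.63, 19 and 1. Minus the median of all genes these were 1.05, -0.30, 0.40 and 0.68. Among members at least 2-fold different, input reversed for SRP9 -1.89, CANX -1.86 and HSPA5 -0.44. In polyribosome RNA they were SRP9 0.97, CANX 1.31, HSP90B1 1.18, PDIA3 0.076, SRP72 0.17, SSR3 0.74, STT3B 1.19, SSR1 0.67, SEC62 0.33, EDEM1 0.26, ATF6 0.079 and SEC63 0.52. In efficiency difference they were SRP9 2.86, CANX 3.17, HSP90B1 4.26, HSPA5 1.66, SRP54 3.08, PDIA3 0.97, SRP72 3.26, DNAJB11 1.01, SSR3 2.00, SPCS3 2.00, RPN2 1.22, STT3B 2.95, SPCS2 0.62, PDIA6 0.56, SSR1 2.34, PDIA4 0.061, SEC62 2.01, EDEM1 2.00, ATF6 1.56, SEL1L 1.80, DNAJB9 1.55 and DNAJC3 1.33. Under 2-fold, a further 18, 9 and 11 members changed sign in input, polyribosome RNA and efficiency difference. No paired analysis was possible because each group holds 1 library and the labels give no replicate numbers, and no library could be left out. Without counts, what depth limits cannot be computed. The lowest members, such as ERN1 and SEL1L, rest on values near the added constant.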
